A study of Mus musculus with 6 samples.

Results

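The 37 genes described here encode enzymes and regulators of cholesterol and fatty acid synthesis, chosen by gene symbol among the 55401 genes of the deposited tables, of which 23783 had any signal. All 37 were found, each with a single value per library. Newly made RNA was measured in iMEF cells, immortalised mouse embryo fibroblasts, to learn how soon transcription responds when the protein ASH2L is taken away. The 6 libraries fell into 3 groups of 2, untreated cells and cells that the labels give as treated with dTAG-13 for 4 h or for 8 h. The paper describes a labelling window that opened before and closed after each of these times, so the signal covers such a window and the cells met dTAG-13 for somewhat longer. All 3 groups carried the same alleles. Their endogenous Ash2l alleles had lost exon 4, and they lived on FKBP-HA2-ASH2L, a human ASH2L with an N-terminal FKBP12F36V tag delivered by lentivirus. dTAG-13 joins this tag to a ubiquitin ligase so that the proteasome destroys the fusion protein, hence the level of an mRNA does not check that the treatment worked. The labels do not name the clone, there was no vehicle group and no dTAG-13 on cells without the tag, and nothing says that the 2 samples of a group were separate cultures, so a p reflects the spread of these samples alone, which may be technical.

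Cholesterol is built in the endoplasmic reticulum from acetyl-CoA by way of mevalonate, squalene and lanosterol, and fatty acids are built in the cytosol from the same acetyl-CoA with NADPH as reductant. Both pathways are switched on by the SREBP transcription factors, which are made as membrane precursors. When sterols are scarce the escort protein SCAP carries the precursors to the Golgi for cleavage, and when sterols are plentiful INSIG proteins hold SCAP back. ASH2L belongs to the core of the COMPASS complexes, which methylate lysine 4 of histone H3, a mark found at the promoters of active genes.

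The promoters of these genes share features that the choice by symbol did not use. RefSeq windows on GRCm38.p6, the assembly also called mm10, were matched for 30 of the 37 genes, and the 250 bases before each start site were searched on both strands. The 7 genes without an entry were Fdps, Fdft1, Sqle, Stard4, Scd1, Scd2 and Fads1. The NF-Y box, CCAAT, occurred in 23 of 30 genes (76.7%), against 37.5% of all 27025 genes with a window. The GC box, GGGCGG, which Sp1 family factors bind, occurred in 25 of 30 (83.3%) against 35.4%. The E-box CACGTG occurred in 7 of 30 (23.3%) against 6.86%. The sterol regulatory element TCACNCCAC occurred in 1 of 30 (3.33%), Hmgcs1, against 1.22%. None of these motifs contains another. The windows of the 30 genes were also richer in G and C, with a median of 62.6% against 52.4%, and had a median observed to expected CpG ratio of 0.697 against 0.373. All genes with a window include many that are silent in fibroblasts, so these shares describe the windows and were not tested. A match is a run of letters and not a shown binding site. Each motif was searched only in the spelling given, so sites that depart from it were not counted.

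**Figure D1:**
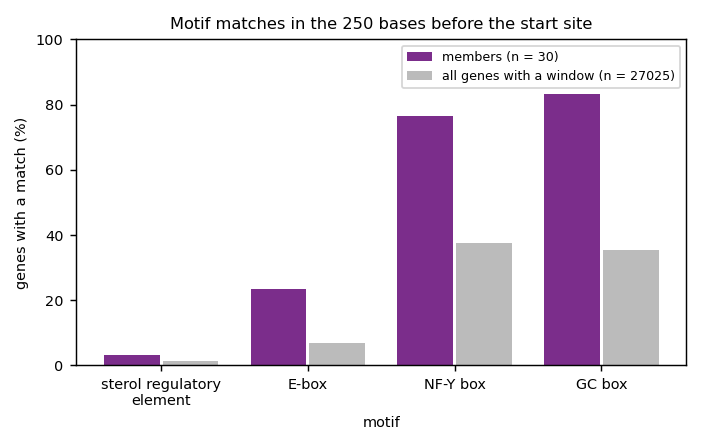
Share of genes (y axis, percent) with at least 1 match to each of 4 motifs (x axis) in the 250 bases before a RefSeq start site, either strand. Purple bars are the 30 cholesterol and fatty acid synthesis genes with a window and grey bars all 27025 genes with a window. The purple bar is the taller of each pair, with 76.7% against 37.5% for the NF-Y box.

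3 windows are printed to show the promoters behind the results below. Nsdhl had the lowest level relative to untreated cells at 8 h, and Srebf2 the highest of those with a mean of at least 50. Hmgcs1 held the only match to the sterol regulatory element as spelled above. Capitals mark the NF-Y box in either orientation and, in Hmgcs1, the sterol regulatory element TCACCCCAC. Each window is on the plus strand, reads 5′ to 3′ and ends at the base before the RefSeq start site. The gene spans given below are from GENCODE, whose starts differ. In GENCODE Srebf2 begins at chr15:82147181, so its window reaches into the gene. The coordinates are chrX:72918271-72918520 for Nsdhl, chr15:82147019-82147268 for Srebf2 and chr13:119690101-119690350 for Hmgcs1. The NF-Y boxes begin 109 and 20 bases before the start of Nsdhl, 135 bases before that of Srebf2, and 237, 176 and 45 bases before that of Hmgcs1, whose sterol regulatory element begins 137 bases before the start.
Nsdhl: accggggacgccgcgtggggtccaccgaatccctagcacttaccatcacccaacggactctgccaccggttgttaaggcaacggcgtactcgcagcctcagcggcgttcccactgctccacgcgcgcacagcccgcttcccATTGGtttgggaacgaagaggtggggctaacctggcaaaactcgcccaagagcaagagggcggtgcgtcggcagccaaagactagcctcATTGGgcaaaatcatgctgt
Srebf2: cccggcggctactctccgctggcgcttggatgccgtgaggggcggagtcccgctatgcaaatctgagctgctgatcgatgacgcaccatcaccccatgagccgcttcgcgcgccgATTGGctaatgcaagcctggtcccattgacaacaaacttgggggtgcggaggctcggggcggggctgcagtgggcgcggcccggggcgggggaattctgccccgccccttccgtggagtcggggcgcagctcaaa
Hmgcs1: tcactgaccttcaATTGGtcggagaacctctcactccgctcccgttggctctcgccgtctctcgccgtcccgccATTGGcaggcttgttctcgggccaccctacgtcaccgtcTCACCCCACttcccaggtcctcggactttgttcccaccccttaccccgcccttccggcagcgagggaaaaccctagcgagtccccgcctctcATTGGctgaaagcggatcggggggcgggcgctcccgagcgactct

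The values per library were recovered as whole numbers from the deposited means, divided by size factors that put all 6 libraries on 1 scale, and are called normalised signal. It is not corrected for gene length, so it does not rank genes by their transcription. The 2 libraries of a group are called a and b, which are not the replicate numbers of the labels. Over the 23615 genes with a single recovered value, the numbers summed to between 7192511 and 24157372 per library, and the sum was lowest in an untreated library and highest in an 8 h library. Of 12 fibroblast markers, the 8 with values per library, Col1a1, Col1a2, Pdgfra and Pdgfrb among them, all averaged above 100, and their summed signal was between 28952 and 31999 in every library. Of 7 adipocyte markers, Pparg and Fabp4 averaged above 100, while Adipoq, Plin1, Cidec and Cfd were near or at 0, and the summed signal was 2700.4 in untreated library b and between 1723 and 2017 in the others. All 3 endothelial markers also averaged above 100, with a summed signal between 8787 and 10242 in every library, most of it from Pecam1 and Cdh5. Hepatocyte and epithelial markers were also present, with Alb between 615 and 1149 and a summed signal of the epithelial list, mainly Krt18, Epcam and Cdh1, between 1013 and 1208. The summed signal of the immune markers was between 88.8 and 265 and was higher in both untreated libraries than in the other four. The part of these other cell type markers in the results was not tested, and in bulk RNA fewer cells of a type and less RNA per cell cannot be told apart.

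No cholesterol or fatty acid synthesis gene passed the test at 4 h or at 8 h of dTAG-13. In limma with Benjamini-Hochberg adjustment over every gene averaging 10 or more, 0 of 36 members had an adjusted p below 0.05 at 4 h, and so had 0% of all 14537 genes tested. At 8 h this was 0 of 37 members and 0% of 15055 genes, and for 8 h against 4 h it was 0 of 37 members and 0% of 15134 genes. The lowest adjusted p of any member was 0.965 at 4 h, 0.892 at 8 h and 0.962 for 8 h against 4 h. Before adjustment, p was below 0.05 for 1 member at 4 h, Sc5d, where 3.62% of all genes had such a p. At 8 h it was below 0.05 for 2 members, Nsdhl and Srebf2, against 4.52% of all genes. For 8 h against 4 h it was again below 0.05 for 2, Nsdhl and Lss, against 4.45%. Nsdhl was listed with its lower level at 8 h known, so its place in both counts carries no weight. A limma fit without the trend of variance on signal called 82 genes at 4 h, 97 at 8 h and 34 for 8 h against 4 h, with no member among them.

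A test that is not passed does not show that a gene kept its level. The intervals give what the libraries could exclude for a level relative to the other genes, in the fit with the trend. At 4 h the 95% interval of the difference lay within a 2-fold change in either direction for 29 of 36 members, and at 8 h for 25 of 37. The narrowest interval at both times was that of Scd2, the stearoyl-CoA desaturase with the highest signal of all members, with ends 0.21 on the log2 scale from its middle. The members with wider intervals were mostly those of weak signal, among them Acss2, Dhcr7, Tm7sf2 and Fdps at both times. The widths depend on the trend. Without it the unadjusted p in limma at 4 h was 0.503 for Scd2 and 0.327 for Pmvk, and with it 0.167 and 0.495. The libraries of a group differed from each other, for the median member, by 1.23-fold in untreated cells, 1.14-fold at 4 h and 1.19-fold at 8 h.

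Relative to the other genes, the median difference of the members from untreated cells was small, with more of them below 0 at 8 h than at 4 h. The median log2 difference of the members was 0.02 at 4 h, with 17 of 36 below 0, against a median of -0.0033 over all genes tested, 50.4% of which were below 0. At 8 h the median of the members was -0.09, with 26 of 37 (70.3%) below 0, against 0.0063 over all genes, 49.4% of which were below 0. For 8 h against 4 h the median was -0.03, with 19 of 37 below 0. The median size of the difference, without its sign, was 0.14 for members at 4 h and 0.18 at 8 h, against 0.27 and 0.29 over all genes, many of which had weaker signal. Averaged over the 36 genes tested at both times, the level relative to the mean of the untreated pair was, on the log2 scale, -0.02 and 0.02 in untreated cells, -0.06 and 0.0050 after 4 h and -0.08 and -0.09 after 8 h. Both 8 h libraries thus lay below both untreated ones, while of the 4 h libraries 1 lay below them and 1 between them. Nsdhl, listed with its lower level at 8 h known, is part of these 8 h counts, medians and averages. They were not computed without it, so they are a description. The 4 h and 8 h comparisons share the untreated pair, so their values are not independent.

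**Figure D2:**
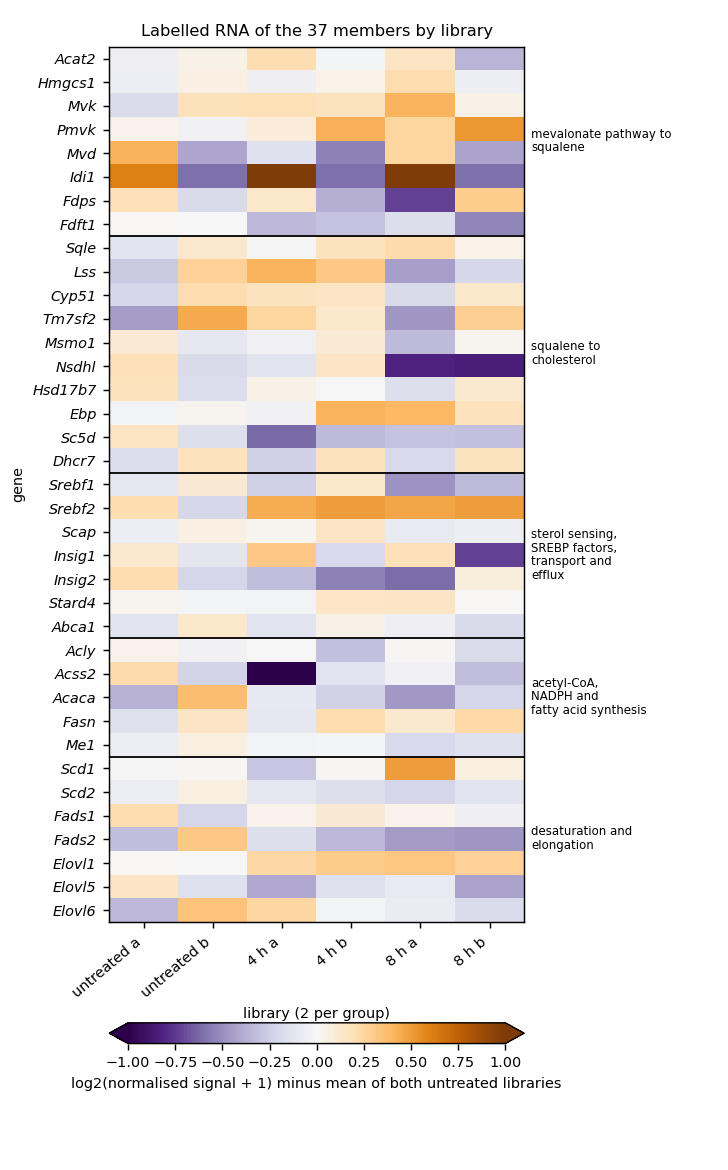
Labelled RNA of the 37 genes (rows, grouped by role) in the 6 libraries (columns), as log2(normalised signal + 1) minus the mean of both untreated libraries, from purple (lower) to orange (higher), with values beyond 1 drawn in the end colours. The darkest purple cells are Nsdhl in both 8 h libraries and Acss2 in a 4 h library, and Srebf2 is orange in all 4 dTAG-13 libraries.

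All these values are relative to the other genes of a library. Before division by the size factors, the whole numbers, which the authors had scaled to the spike-in RNA according to the methods, had a median difference over all genes of 0.74 at 4 h, 1.25 at 8 h and 0.51 for 8 h against 4 h. On that scale, chosen after the data had been seen, the median member was at 0.76 at 4 h and 1.15 at 8 h, and 35 of 36 and 37 of 37 members were above 0. At 8 h, 18 of 37 members were called higher with an adjusted p below 0.05, where 39.2% of all genes were called higher. The whole numbers also move with sequencing depth wherever the spike-in scaling left it in, and the part of depth was not tested. The values that follow are therefore given relative to all genes.

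In the first steps, from acetyl-CoA to squalene, no gene passed the test. Hmgcs1, which makes HMG-CoA, had the highest signal of these 8 genes. It was at 2654 and 2885 in untreated cells, 2671 and 2849.6 after 4 h and 3209 and 2653 after 8 h, so that the groups overlapped. Its log2 difference was -0.0058 ± 0.13 (SE) at 4 h and 0.08 ± 0.13 at 8 h. Pmvk, the phosphomevalonate kinase, was at 258 and 246 in untreated cells, 268 and 339 after 4 h and 299.7 and 361 after 8 h. All 4 dTAG-13 libraries lay above both untreated ones, and the log2 differences of 0.26 ± 0.36 at 4 h and 0.39 ± 0.33 at 8 h were of the size of their errors. Fdft1, squalene synthase, was lower without overlap at both times, with 444 and 444 in untreated cells, 349.99 and 359.8 after 4 h and 394 and 308 after 8 h. The log2 differences of -0.32 ± 0.29 at 4 h and -0.35 ± 0.29 at 8 h were near the size of their errors. Fdft1 shares 18.3% of its exonic bases with Ctsb on the other strand, and the sources used here do not say whether reads were counted by strand. Among the other genes tested at 4 h, which were Acat2, Mvk, Mvd and Fdps, the log2 difference was between -0.35 in Mvd and 0.18 in Mvk, and each overlapped between groups at both times.

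Idi1, the isopentenyl diphosphate isomerase, was singled out after its values were seen. Its normalised signal was 1.31 and 0 in untreated cells, 46.3 and 0 after 4 h and 47.5 and 0 after 8 h. At each time 1 of 2 libraries held all of its signal, and no fold is given. Its mean fell short of 10 at 4 h, so it was tested only at 8 h and for 8 h against 4 h. It was the only member with a mean under 50.

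From squalene to cholesterol, Nsdhl stood lowest relative to untreated cells at 8 h, among these 10 genes and among all 37. Nsdhl encodes the sterol dehydrogenase that acts in the removal of methyl groups from lanosterol derivatives. The gene (ENSMUSG00000031349) lies at chrX:72918557-72958514 on the plus strand (mm10), and no annotated exon of another gene overlaps its exons. Its normalised signal was 782 and 597 in untreated cells, 622 and 758 after 4 h and 386 and 379 after 8 h. Both 8 h libraries lay below the other 4, which overlapped one another. Against untreated cells the log2 difference was -0.83 ± 0.26 (SE) at 8 h, 1.78-fold lower, with a 95% interval of the ratio of 0.37 to 0.85, and 0.0066 ± 0.25 at 4 h. Against 4 h the 8 h difference was -0.84 ± 0.26. That Nsdhl was lower at 8 h was known when the genes were listed, so these values are a description.

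**Figure D3:**
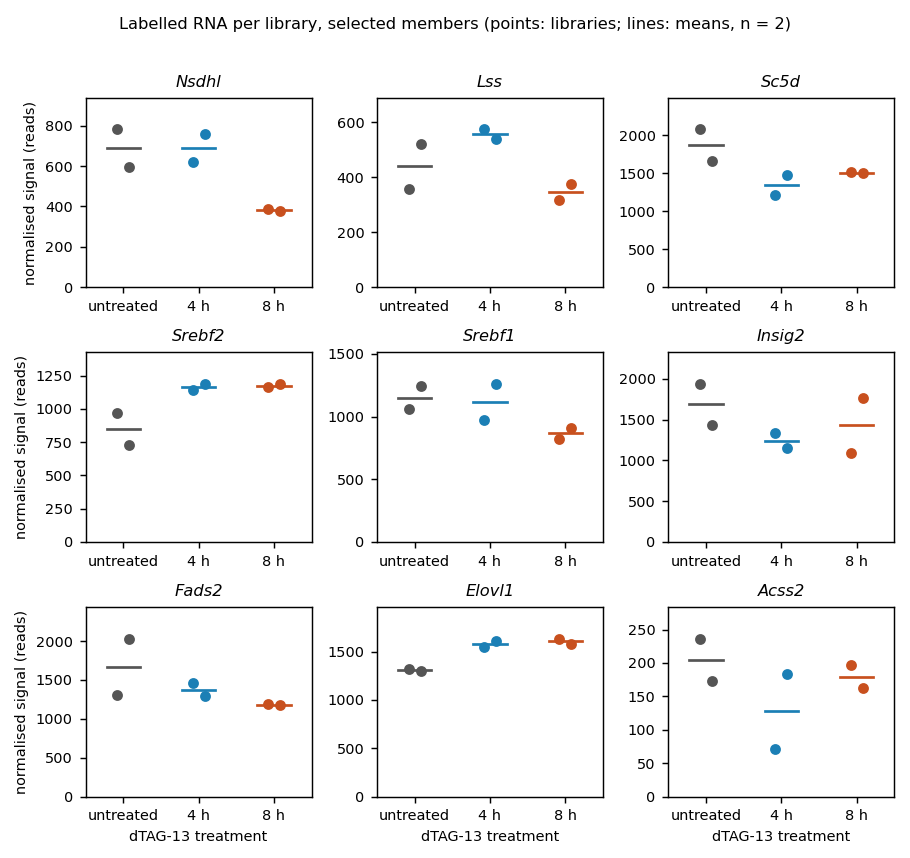
Normalised signal per library (y axis, reads, from 0) of 9 genes in untreated, 4 h and 8 h cells (x axis). Points are the 2 libraries of a group and lines their mean. Nsdhl stands at 386 and 379 at 8 h, below all other libraries, and Srebf2 between 1144 and 1188 in the 4 dTAG-13 libraries, above both untreated ones.

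In Msmo1 and Hsd17b7, which act with Nsdhl in the same reaction sequence, the untreated and 8 h groups overlapped. Msmo1, the sterol methyl oxidase that works just before Nsdhl, had the highest signal of these 10 genes. It was at 2686 and 2319.9 in untreated cells, 2427 and 2689 after 4 h and 1982 and 2539 after 8 h. Its groups overlapped throughout, with a log2 difference of -0.15 ± 0.16 at 8 h. Hsd17b7, the sterol ketoreductase of the same reaction sequence, differed by -0.02 ± 0.24 at 8 h. Lss, lanosterol synthase, was at 359 and 522 in untreated cells, 575 and 540.1 after 4 h and 319 and 375 after 8 h. The untreated libraries overlapped those at 8 h and lay below those at 4 h. Its log2 difference was -0.32 ± 0.31 at 8 h, 0.36 ± 0.29 at 4 h and -0.69 ± 0.30 for 8 h against 4 h, the last without overlap. The differences from untreated cells depended on which untreated library was used, with -0.59 at 8 h and 0.09 at 4 h without library a, and -0.05 at 8 h and 0.63 at 4 h without library b. The adjusted p of Lss for 8 h against 4 h in limma was 0.962. Cyp51, lanosterol demethylase, was also lower without overlap for 8 h against 4 h, with 838 and 1051 against 1073 and 1065. That log2 difference was -0.19 ± 0.21. The untreated libraries of Cyp51, at 821 and 1111, overlapped with both times, and its difference from them at 8 h was -0.02 ± 0.22.

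Sc5d, the lathosterol desaturase near the end of the pathway, was the only gene of this branch that lay apart from untreated cells at both times. It was at 2077 and 1665 in untreated cells, 1211 and 1481 after 4 h and 1510.5 and 1506 after 8 h. Its log2 difference was -0.47 ± 0.18 at 4 h, with an unadjusted p of 0.0306 and an adjusted p of 0.965 in limma, and -0.30 ± 0.16 at 8 h. Without untreated library a it was -0.32 at 4 h and -0.14 at 8 h. Ebp, the sterol isomerase that acts before it, was at 995 and 854 at 8 h, against 739.8 and 772 in untreated libraries, a difference of 0.29 ± 0.20. Sqle, squalene epoxidase, Tm7sf2, a sterol reductase, and Dhcr7, which makes cholesterol from its last precursor, overlapped between groups at both times. Their log2 differences were between -0.03 and 0.19 at 4 h and between -0.09 and 0.14 at 8 h. Tm7sf2 shares 12.1% of its exonic bases with Vps51 on the same strand, and the other members that share over 10% are Fdps (26.7%, with Gm43738 on the same strand) and, with genes on the other strand, Fdft1 (18.3%), Scap (13.2%) and Hmgcs1 (12.1%). At 8 h 8 of the 10 genes from squalene to cholesterol were below 0, with a median of -0.06, and at 4 h 2 of 10 were, with a median of 0.05. Over all genes 49.4% were below 0 at 8 h and 50.4% at 4 h. Nsdhl, listed with its lower level at 8 h known, is among the 8. So are Cyp51, Hsd17b7 and Dhcr7, at -0.02, -0.02 and -0.01 with errors of 0.22 to 0.54.

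Among the regulators, the genes of both SREBP factors differed from untreated cells in opposite directions at 8 h, and neither difference passed the test. Srebf2, at chr15:82147181-82205379 on the plus strand (mm10), encodes the factor that chiefly drives the cholesterol genes. It was at 971 and 731 in untreated cells, 1144 and 1188 after 4 h and 1165 and 1187 after 8 h. All 4 dTAG-13 libraries lay above both untreated ones, and they were closer to one another than the untreated libraries were. The log2 difference was 0.47 ± 0.21 at 4 h and 0.48 ± 0.20 at 8 h, with adjusted p of 0.965 and 0.892 in limma. Without untreated library b it was 0.26 at 4 h and 0.28 at 8 h, and without untreated library a 0.67 and 0.69. Srebf1, whose products chiefly drive fatty acid genes, was at 1062 and 1242 in untreated cells, 975 and 1260.5 after 4 h and 823 and 912 after 8 h. At 8 h it lay below both untreated libraries, a log2 difference of -0.40 ± 0.18, and at 4 h it overlapped with them, at -0.05 ± 0.21. For 8 h against 4 h Srebf1 was lower without overlap, at -0.36 ± 0.20, and Srebf2 differed by 0.01 ± 0.19.

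The sterol sensing partners varied mostly between libraries of a group. Scap, the escort of the SREBP precursors, was at 1483 and 1606 in untreated cells, 1574 and 1716 after 4 h and 1449.8 and 1481 after 8 h. Its 8 h libraries lay below the others by a small step, and its difference from untreated cells was -0.07 ± 0.15. Insig1, an SREBP target itself, was at 444 and 375 in untreated cells, 508 and 356 after 4 h and 467 and 245 after 8 h, with overlap at both times. Insig2 was at 1939 and 1436 in untreated cells, 1337 and 1148 after 4 h and 1093 and 1770.4 after 8 h. Its 4 h libraries lay below both untreated ones, a log2 difference of -0.43 ± 0.20, which was -0.22 without untreated library a, and its 8 h libraries overlapped with them. Abca1, the pump that exports cholesterol and had the highest signal of these 7 genes, was at 2106 and 2547 in untreated cells, 2112 and 2398 after 4 h and 2237 and 2028 after 8 h. Stard4, a carrier of cholesterol between membranes, differed by 0.06 ± 0.18 at 4 h and 0.08 ± 0.16 at 8 h.

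**Figure D4:**
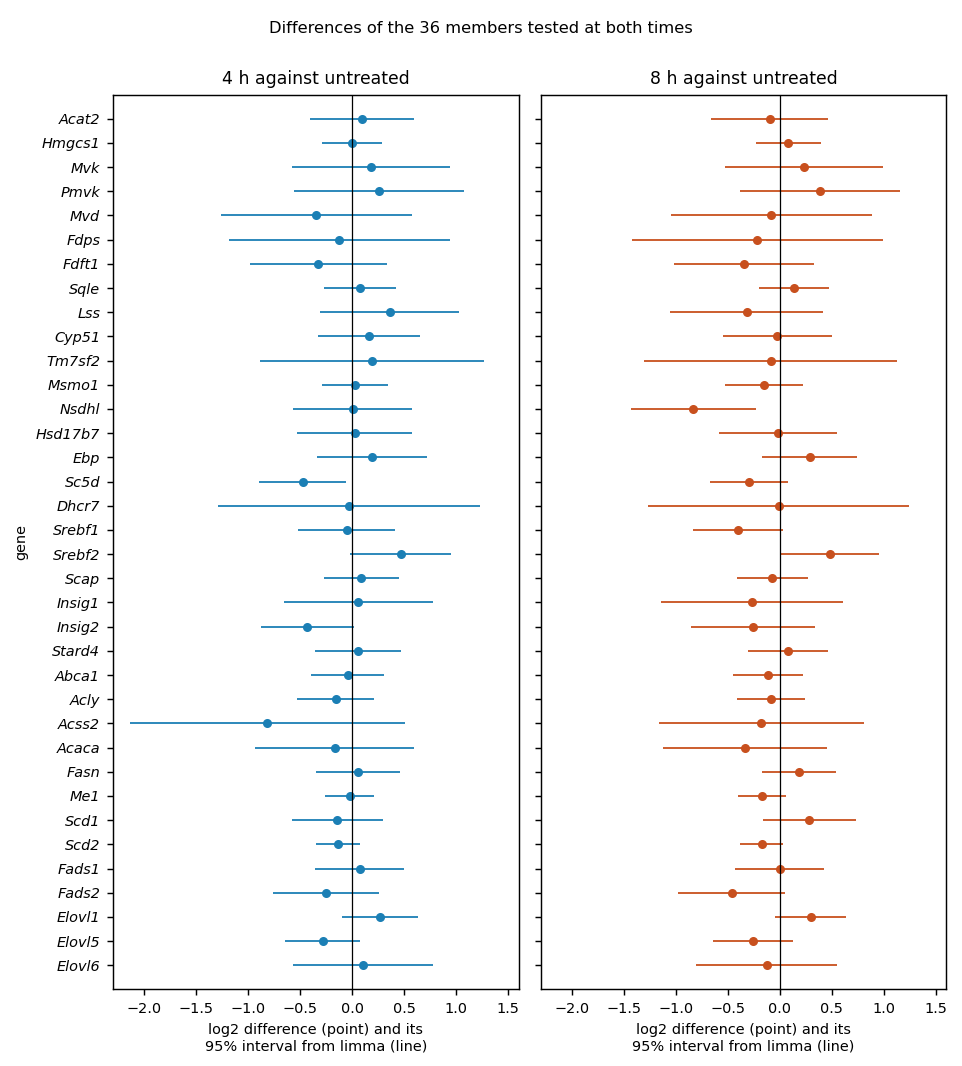
Log2 difference (x axis, point) with its 95% interval from limma (line) for the 36 genes tested at both times (rows), with 4 h against untreated on the left and 8 h against untreated on the right. The interval leaves out 0 for Sc5d at 4 h and for Nsdhl and Srebf2 at 8 h, before any adjustment for the number of genes tested.

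Of the 5 genes that supply acetyl-CoA and NADPH and build palmitate, none passed the test. Me1, malic enzyme and a source of NADPH, had the highest signal of these 5 and was at 4294 and 4692 in untreated cells, 4402 and 4429 after 4 h and 3913 and 4057 after 8 h. The log2 difference of -0.17 ± 0.10 at 8 h came without overlap, and that of -0.03 ± 0.10 at 4 h with it. Acss2, the cytosolic acetyl-CoA synthetase, had the lowest log2 difference of any member at 4 h, -0.82 ± 0.58, and 1 of the 2 libraries decided it. It was at 237 and 173 in untreated cells, 71.1 and 184 after 4 h and 196 and 163 after 8 h. Without the lower 4 h library its difference from untreated cells at 4 h was -0.14, and that for 8 h against 4 h was -0.04, against 0.64 with it. Acly, ATP citrate lyase, Acaca, acetyl-CoA carboxylase, and Fasn, fatty acid synthase, overlapped between groups at both times. Their log2 differences were between -0.17 and 0.05 at 4 h and between -0.34 and 0.18 at 8 h.

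Among desaturases and elongases, Elovl1 was higher and Scd2 and Fads2 were lower, again short of the test. Elovl1, which lengthens very long chains, was at 1317 and 1304 in untreated cells, 1549 and 1612 after 4 h and 1636 and 1576 after 8 h. Its difference was 0.27 ± 0.16 at 4 h and 0.30 ± 0.15 at 8 h, and the libraries within each group were close. Scd2 was at 6633 and 7295 in untreated cells, 6433 and 6212 after 4 h and 6007 and 6316 after 8 h, log2 differences of -0.14 ± 0.09 at 4 h and -0.17 ± 0.09 at 8 h. Fads2, a desaturase of polyunsaturated fatty acids, was at 1306 and 2033 in untreated cells, 1462 and 1288 after 4 h and 1186 and 1173 after 8 h. At 8 h it lay below both untreated libraries, a log2 difference of -0.46 ± 0.22, and without untreated library b this was -0.15, without untreated library a -0.78. Scd1, the other main stearoyl-CoA desaturase, was at 1614 and 1199 at 8 h, against 1137 and 1153 in untreated libraries, a difference of 0.28 ± 0.19. At 4 h it was at 937 and 1152, with overlap and a difference of -0.14 ± 0.19. Elovl5, which lengthens polyunsaturated chains, was at 2028 and 2440.1 at 4 h, against 2999.8 and 2432 in untreated libraries. These groups overlapped, with a difference of -0.28 ± 0.16 on the authors' scale, where they lay apart. At 8 h it was at 2539 and 2012, with overlap and a difference of -0.25 ± 0.16. Fads1 and Elovl6 overlapped between untreated and treated libraries at both times.

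Counted over all roles, the groups did not overlap for 4 members that were higher at 4 h, where 16.3% of all genes were apart in that direction, and for 5 that were lower, where again 16.3% were. The share of the 36 members was 11.1% and 13.9%. At 8 h, 5 of 37 (13.5%) were apart and higher, against 17.6% of all genes, and 8 of 37 (21.6%) apart and lower, against 16.5%. For 8 h against 4 h, 2 of 37 (5.41%) were apart and higher, against 16.9%, and 8 of 37 (21.6%) apart and lower, against 16.4%. These shares are near the background or below it, with those of lower genes at 8 h about 5 percentage points above it. Nsdhl, listed with its lower level at 8 h known, is counted among the lower genes in both comparisons of 8 h. Apart from untreated cells in the same direction at both times were Pmvk, Srebf2 and Elovl1 (higher) and Fdft1, Sc5d and Scd2 (lower), comparisons that share the untreated libraries. With 2 libraries a group, an exact permutation test of a single gene cannot give a two-sided p below 0.333.

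**Figure D5:**
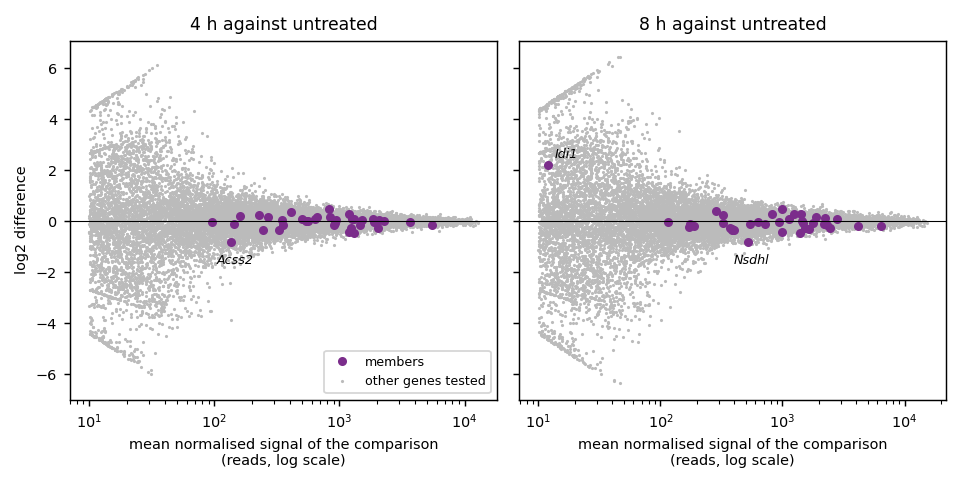
Log2 difference (y axis) against the mean normalised signal of the comparison (x axis, reads, log scale) for all genes tested (grey) and the cholesterol and fatty acid synthesis genes (purple), with 4 h against untreated on the left and 8 h against untreated on the right. The purple points lie within the grey band of genes of like signal, with Nsdhl at -0.83 at 8 h, Acss2 at -0.82 at 4 h and Idi1, the gene of lowest signal, labelled.

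Genes around these pathways were read from the same fits. Of 113 genes in 6 lists, which covered the isoprenoid branch and late sterol enzymes, SREBP cleavage and sterol-regulated degradation, cholesterol uptake and movement, LXR and efflux, fatty acid activation and lipogenic regulators, and fatty acid oxidation, 103 were tested at 4 h and 104 at 8 h. None was called in either direction in limma, with a lowest adjusted p of 0.965 and 0.892. Over all genes tested, 3.62% had an unadjusted p below 0.05 in limma at 4 h and 4.52% at 8 h. In these lists 3 of 103 genes had such a p at 4 h and 2 of 104 at 8 h. These were Erg28 (higher), Mbtps2 and Etfa (lower) at 4 h, and Ncor1 and Gpam (higher) at 8 h, named because there were so few. The median log2 difference was -0.02 over the 103 genes at 4 h, with 55 below 0, and 0.04 over the 104 at 8 h, with 50 below 0. At 8 h the list medians ran from -0.12 for SREBP cleavage and sterol-regulated degradation, which holds the proteases and coat proteins that process SREBP, to 0.12 for LXR and efflux.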

How the data were processed

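Newly made RNA of iMEF cells was labelled with an ethynyl nucleoside, captured by Click-iT chemistry and sequenced in 6 libraries, 2 per group as the labels give them. The sources disagree on the library kit. According to the methods, the authors aligned reads to mm10 with STAR, assigned them to genes with featureCounts, scaled them to ERCC spike-in RNA and compared groups with DESeq2. The tools in the submitters' processing notes, given without versions, were deepTools, MACS2, SAMtools and BWA. The deposited signal is, per gene and comparison, the mean over 4 libraries of numbers divided by size factors. The tables' fold changes, p-values and q-values are the authors' own comparisons and were not used.

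Whole numbers per library were recovered from the deposited means, printed to 15 significant digits, by lattice reduction (Python 3.11.15) with a tolerance of 1.5 half-units of the last digit. Of 23783 genes with signal, 23615 had a single solution and 168 had several, which were left out. Of the 3671 genes with means under 6 in both tables, 3671 gave equal numbers for each untreated library, which both tables share. This places libraries in groups but gives no replicate numbers. In 4 of 6 libraries the numbers had regular gaps with a spacing of 1.05 to 1.56, as a multiplication before rounding leaves, so no count model was used. Both recovery and tests were tested on simulated data.

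Log2(normalised signal + 1) was fitted with limma 3.58.1 (R 4.3.3), with a trend of variance on signal, for genes averaging 10 or more, two-sided, with Benjamini-Hochberg adjustment. The 4 h and 8 h fits used 4 libraries and the authors' size factors, and 8 h against 4 h used 6 libraries and median ratios. The pseudocount understates changes of weak genes. Precision is limited by 2 libraries per group. Values per library were named for any gene called, the 3 highest and 3 lowest differences per time with a mean of at least 50, Nsdhl, 5 regulators and the highest signal of each role, 17 genes in all. Those of Idi1, Fdft1, Cyp51, Ebp, Scd1 and Elovl5 were added after their values were seen. Alternatives were other pseudocounts, filters, scalings, limma settings, 1 fit over all libraries and each library left out. The members and lists were chosen with earlier results of these data known. Gene positions are from GENCODE M21 on GRCm38 (mm10), promoter windows from RefSeq.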

Additional observations from a re-analysis of the deposited data

How the results depend on the processing

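Under 9 other settings at 4 h and at 8 h and 8 for 8 h against 4 h, planned pseudocounts, filters, scalings and limma settings, each of the 17 named genes kept the direction of its difference, and no member was called. Limma without the trend called 82 genes at 4 h, 97 at 8 h and 34 for 8 h against 4 h, where the fits of the report called 0. Numbers before division by size factors, a setting chosen after the data were seen, gave a median log2 difference of members of 0.76 at 4 h and 1.15 at 8 h, beside 0.74 and 1.25 over all genes. On that scale 18 members and 6053 genes were called at 8 h and 1 gene for 8 h against 4 h, and the cause was not tested. No paired analysis was possible because the recovered libraries carry no replicate number. Leaving out each library in turn, with a lone library assumed to vary like the other groups, left no member called. It gave a median of the members of -0.061 to 0.064 at 4 h and -0.072 to -0.050 at 8 h, and turned the direction of 22 log2 differences of named genes in at least 1 such fit. Of 14 turns at 4 h, 8 came without untreated library b, 4 without 4 h library a and 2 without 4 h library b. At 4 h the ranges were Abca1 from -0.18 to 0.097, Fads2 from -0.57 to 0.073, Hmgcs1 from -0.069 to 0.057, Insig1 from -0.20 to 0.32, Me1 from -0.092 to 0.042, Msmo1 from -0.071 to 0.13, Nsdhl from -0.19 to 0.20 and Srebf1 from -0.23 to 0.13. At 8 h the ranges were Abca1 from -0.25 to 0.016, Acss2 from -0.40 to 0.048, Hmgcs1 from -0.058 to 0.22, Insig1 from -0.73 to 0.20, Insig2 from -0.61 to 0.088 and Msmo1 from -0.33 to 0.027. For 8 h against 4 h the ranges were Abca1 from -0.17 to 0.012, Acss2 from -0.043 to 1.32, Elovl1 from -0.0054 to 0.052, Hmgcs1 from -0.056 to 0.22, Insig1 from -0.79 to 0.13, Insig2 from -0.18 to 0.51, Pmvk from -0.044 to 0.30 and Srebf2 from -0.015 to 0.040.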
